A study of Mus musculus with 11 samples.

Results

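The subject is the core of the circadian clock, taken as 10 genes, in the quadriceps, a large thigh muscle, of aged mice given myriocin. The genes were chosen by symbol and matched to the Ensembl identifiers of the count table: the activators Arntl (the former symbol of Bmal1), Clock and Npas2, and the repressors Per1, Per2, Per3, Cry1, Cry2, Nr1d1 and Nr1d2. All 10 were found among 53465 genes, and all 10 passed the filter on low counts. RNA sequencing gave 11 libraries of the strain written C57L/6JRj, 6 from mice given myriocin and 5 from mice given DMSO, the solvent. Both groups began at 18 months of age and were treated for 10 weeks. Myriocin, a fungal compound, blocks serine palmitoyltransferase, which starts sphingolipid synthesis. The sources used here give neither the dose, nor the sex of the mice, nor the hour at which muscle was collected. Whether every library is a separate mouse is likewise unstated, so p-values measure only how far these samples spread, which may be technical. In whole muscle, fewer cells of a type and less RNA per cell cannot be told apart.

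The clock is a feedback loop of transcription. The proteins of Arntl and Clock, or of Arntl and Npas2, bind DNA at sites called E-boxes and switch on the Per, Cry and Nr1d genes. PER and CRY proteins then return to the nucleus and restrain the activators, while the Nr1d proteins (REV-ERB) compete with ROR receptors at sites called ROREs and repress Arntl, Npas2 and Clock. In mouse skeletal muscle, as in other tissues, Arntl and the Per genes therefore peak at opposite times of day, and Clock itself changes little. A single muscle sample catches 1 moment of this cycle.

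Promoter sequence is shown for Arntl, Npas2 and Nr1d1, the genes of the 3 pairs called across libraries, and for Per3, from RefSeq on GRCm38.p6, 250 bases before to 50 bases after a start site, 5′ to 3′ on the gene's strand. Of the 10 genes, 9 had at least 1 of 13 such windows, all but Per2. Both strands were searched for 5 motifs. The E-box has the letters CACGTG. Its variant, at which the activating pair can also bind, was searched as CACGTT. The D-box, the site of the Dbp, Tef and Hlf proteins, was searched as TTANGTAA, in which N is any base. A first RORE core was searched as TAGGTCA. The other core of this kind, which differs from it at 1 base, was TGGGTCA. Matches stand in capitals, a match on the other strand reads as the reverse complement, and none overlap. Arntl is given from chr7:113207261-113207560 (plus strand), with a RORE core 30 bases after the start. Its other window, which overlaps this one, held no match to the 5 motifs. Both Arntl windows also hold TAGGTTA, which differs from the first core at 1 base and was not among the letters searched. Npas2 is from chr1:39194022-39194321 (plus strand), with no match. Nr1d1 is from chr11:98775328-98775627 (minus strand), with an E-box variant 28 bases before the start. Per3 is from chr4:151044616-151044915 (minus strand), with D-boxes 205 and 158 bases before the start.
Arntl: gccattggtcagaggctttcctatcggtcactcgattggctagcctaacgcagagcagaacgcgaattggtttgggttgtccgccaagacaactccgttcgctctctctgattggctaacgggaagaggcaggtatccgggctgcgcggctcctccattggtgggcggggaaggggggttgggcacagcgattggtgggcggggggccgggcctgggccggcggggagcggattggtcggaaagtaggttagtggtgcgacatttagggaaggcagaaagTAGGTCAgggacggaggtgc
Npas2: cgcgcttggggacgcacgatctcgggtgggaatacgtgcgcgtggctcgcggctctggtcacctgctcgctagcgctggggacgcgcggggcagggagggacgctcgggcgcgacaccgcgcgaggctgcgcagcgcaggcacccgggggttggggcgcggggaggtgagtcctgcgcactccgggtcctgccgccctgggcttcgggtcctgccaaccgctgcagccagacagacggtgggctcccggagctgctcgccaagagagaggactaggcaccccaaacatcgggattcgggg
Nr1d1: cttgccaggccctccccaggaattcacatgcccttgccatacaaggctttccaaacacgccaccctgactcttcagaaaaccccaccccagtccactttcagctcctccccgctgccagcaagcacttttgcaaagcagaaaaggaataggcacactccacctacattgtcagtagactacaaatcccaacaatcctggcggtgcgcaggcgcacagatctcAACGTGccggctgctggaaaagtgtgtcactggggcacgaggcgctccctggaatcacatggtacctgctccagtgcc
Per3: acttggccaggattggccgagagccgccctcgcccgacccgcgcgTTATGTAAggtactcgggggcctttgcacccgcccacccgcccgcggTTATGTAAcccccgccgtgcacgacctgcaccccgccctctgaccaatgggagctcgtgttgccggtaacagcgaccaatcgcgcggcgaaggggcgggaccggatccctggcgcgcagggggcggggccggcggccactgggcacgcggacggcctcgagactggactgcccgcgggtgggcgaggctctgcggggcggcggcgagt
Per1 held an E-box in 1 of its 2 windows, 166 bases before the start, and no match in the other. Cry1 held an E-box and a variant in its window and Cry2 a variant, while the windows of Clock and Nr1d2 had no match to these letters. Among all 32851 windows the E-box occurs in 7.15%, the variant in 4.68%, the D-box in 2.32%, and the RORE cores in 2.61% (TAGGTCA) and 3.98% (TGGGTCA). A match is a description of the letters, not evidence of binding in these muscles.

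Libraries were even in depth, with 22241131 to 23163721 reads counted in genes. The 8 skeletal muscle markers, among them Acta1 and Ckm, summed to 154700 to 174372 CPM (counts scaled to the library total) with myriocin and 142371 to 162490 CPM with DMSO. The 3 libraries farthest out on the first components were Myriocin replicate 4, DMSO replicate 2 and DMSO replicate 5. All 8 liver transcripts were detected and summed to 7.51 to 138.0 CPM with myriocin and 6.66 to 130.7 CPM with DMSO; values above 100 occurred in Myriocin replicate 4 and DMSO replicates 4 and 5. All 7 neutrophil markers had counts, summing to 0.571 to 117.0 CPM with myriocin and 0.405 to 854.0 CPM with DMSO, the top value in DMSO replicate 2. The 6 adipocyte markers summed to 148.9 to 330.4 CPM with myriocin and 187.1 to 839.7 CPM with DMSO, again highest in DMSO replicate 2. These libraries are named below where a clock value rests on them.

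Levels of the 10 genes covered a wide range. Per kilobase of annotated exon, Nr1d1 stood highest, at 67.5 ± 13.3 RPKM (SD over 11 libraries), and lay above every other member in each library. Its relative Nr1d2 followed at 15.9 ± 2.17 RPKM, then Per1 at 12.6 ± 4.27 RPKM and Cry2 at 8.93 ± 1.19 RPKM. Nr1d2 exceeded Per1 in 9 of 11 libraries, and their ranges overlapped. Below a clear step came Cry1 at 4.12 ± 0.540 RPKM and Arntl at 3.82 ± 0.972 RPKM, in either order depending on the library. Per3 at 2.12 ± 0.393 RPKM, Clock at 2.0 ± 0.211 RPKM and Per2 at 1.6 ± 0.519 RPKM had overlapping ranges. Npas2, which can stand in for Clock as the partner of Arntl, was the lowest at 0.475 ± 0.166 RPKM and rested on 28 to 83 reads per library.

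No clock gene passed the test for a difference between myriocin and DMSO. Of the 10 members, 7 had positive and 3 negative log2 fold changes (myriocin minus DMSO), against 46.3% positive among 14117 genes tested, and the median was 0.18 against -0.012 over all genes. With edgeR's quasi-likelihood test, 0 of 10 members passed an adjusted p of 0.05, where the share of all genes passing was 0%. At an unadjusted p under 0.05 there was 1 member, Clock, on the higher side, against 4.68% of all genes in either direction and 2.33% on the higher side; DESeq2 and limma-voom also called 0 of the 10. The groups overlapped for all 10 members, while 0.361% of all genes had groups that did not overlap. The plot of clock levels by library shows this overlap for each gene.

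**Figure D1:**
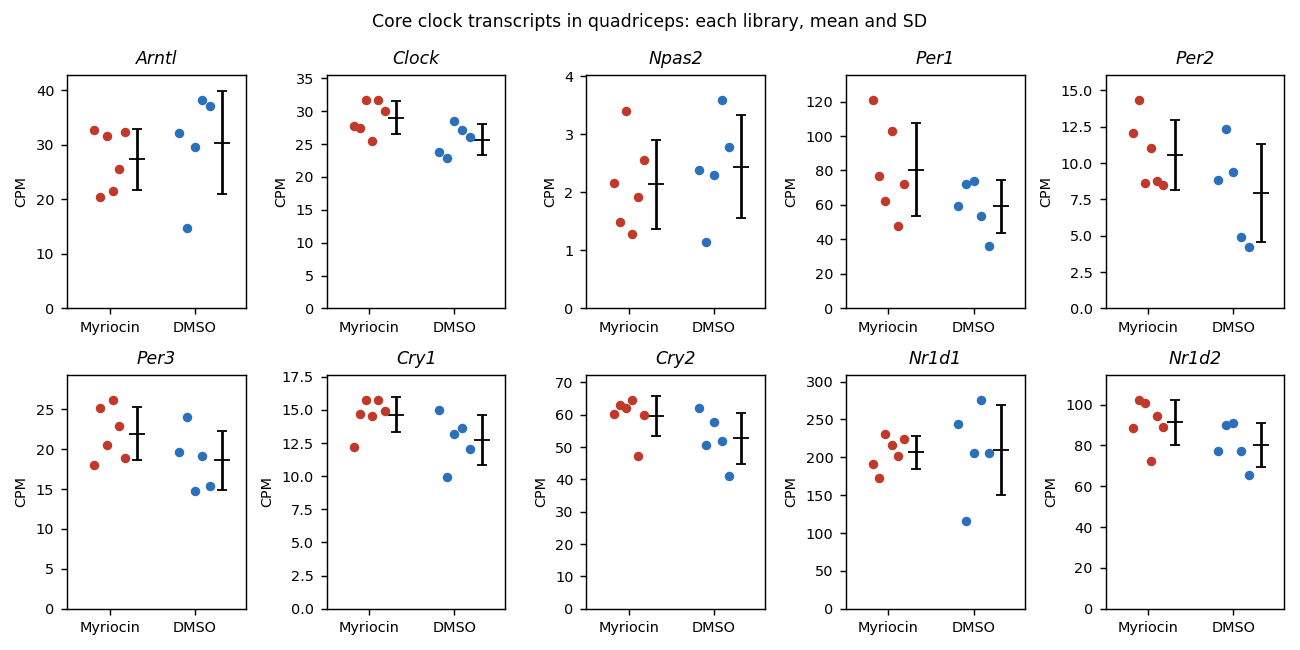
CPM (y axis, from 0) of each of the 10 clock genes in every library; red points are the 6 myriocin libraries, blue points the 5 DMSO libraries, and black bars give the mean and SD of each group. The groups overlap in every panel, and the lowest Arntl, Npas2 and Nr1d1 points all belong to 1 DMSO library, replicate 2.

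Among the activators, Arntl (ENSMUSG00000055116, GRCm38 chromosome 7, 113207465 to 113314126, plus strand), the indispensable partner of the activating pair, had 20.5 to 32.7 CPM with myriocin (median 28.6), against 32.1, 14.8, 29.7, 38.3 and 37.1 CPM in DMSO replicates 1 to 5. The DMSO group held both the lowest and the highest library. The log2 fold change was -0.15 with a 95% interval from -0.64 to 0.34 (edgeR adjusted p = 0.952). Npas2 (ENSMUSG00000026077, chromosome 1, 39193731 to 39363236, plus strand) had 1.29 to 3.41 CPM with myriocin (median 2.04), against 2.38, 1.15, 2.30, 3.60 and 2.77 CPM with DMSO. Again DMSO replicate 2 was lowest and DMSO replicate 4 highest; the log2 fold change was -0.18 (SE 0.28). Clock (ENSMUSG00000029238, chromosome 5, 76209868 to 76304792, minus strand) had 25.5 to 31.8 CPM with myriocin (median 28.9), against 23.8, 22.9, 28.5, 27.2 and 26.0 CPM with DMSO. Its levels were the steadiest of the 10, and 5 of 6 myriocin libraries lay above the DMSO mean. Its log2 fold change of 0.18 had an interval from 0.0075 to 0.35 (unadjusted p = 0.0419, adjusted p = 0.936, edgeR).

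The Per genes, whose proteins form the repressing complex with CRY, had the farthest values from 0. Per1 (ENSMUSG00000020893, chromosome 11, 69095217 to 69109960, plus strand) had 121.1, 76.8, 62.3, 102.7, 48.01 and 72.2 CPM in Myriocin replicates 1 to 6, against 59.6, 72.3, 73.8, 53.6 and 36.5 CPM in DMSO replicates 1 to 5. Myriocin replicates 1, 2 and 4 lay above every DMSO library, the other three within their range. The log2 fold change was 0.44 with an interval from -0.11 to 0.996 (edgeR adjusted p = 0.936). Per2 (ENSMUSG00000055866, chromosome 1, 91415982 to 91459324, minus strand) had 12.1, 14.4, 8.60, 11.03, 8.75 and 8.52 CPM with myriocin, against 8.87, 12.3, 9.39, 4.94 and 4.20 CPM with DMSO. All 6 myriocin libraries lay above the DMSO mean of 7.95 ± 3.36 CPM (SD, n = 5), a mean lowered by DMSO replicates 4 and 5. The log2 fold change was 0.41 (SE 0.26, interval -0.16 to 0.97); without the 3 libraries with liver transcripts it was 0.038, and that of Per1 was 0.15. Per3 (ENSMUSG00000028957, chromosome 4, 151003652 to 151044665, minus strand), the member of the family that mice can lack with a mild change of rhythm, had 18.0 to 26.2 CPM with myriocin (median 21.8), against 19.7, 24.0, 14.7, 19.1 and 15.3 CPM with DMSO. Myriocin replicates 2 and 4 exceeded every DMSO library and the other myriocin libraries fell among them. Its log2 fold change was 0.24 (SE 0.13), and 0.12 without the liver-transcript libraries.

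The Cry genes encode strong repressors of the activating pair. Cry1 (ENSMUSG00000020038, chromosome 10, 85131700 to 85185064, minus strand) averaged 14.6 ± 1.3 CPM with myriocin (SD, n = 6) and 12.7 ± 1.89 CPM with DMSO (SD, n = 5), a log2 fold change of 0.20 (SE 0.10). Cry2 (ENSMUSG00000068742, chromosome 2, 92403646 to 92434043, minus strand) averaged 59.5 ± 6.21 CPM with myriocin and 52.7 ± 7.88 CPM with DMSO (0.18, SE 0.10). In both genes 5 of 6 myriocin libraries lay above the DMSO mean. Cry1 gave 0.074 without the 3 libraries farthest out. Cry2 gave 0.031 without them and 0.047 without the liver-transcript libraries. Of the exon bases of Cry2, 4.67% also lie in the opposite-strand transcript D930015M05Rik, which had 2 to 19 reads per library.

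The nuclear receptors Nr1d1 and Nr1d2 repress Arntl in the second loop of the clock. Nr1d1 (ENSMUSG00000020889, chromosome 11, 98767932 to 98775333, minus strand) had 173.2 to 230.9 CPM with myriocin (median 208.8), against 243.5, 116.1, 206.3, 275.8 and 205.4 CPM with DMSO. The DMSO libraries enclosed the whole myriocin range, and the log2 fold change was -0.021 (SE 0.17). Its exons overlap those of Thra, a thyroid hormone receptor gene on the opposite strand, over 263 bases, 8.55% of its exon length. Thra averaged 74.9 ± 6.87 CPM with myriocin and 70.8 ± 10.04 CPM with DMSO, and the strand setting used in counting is unstated. Over 11 libraries Thra had r = 0.68 with Nr1d1, a value reached by 2.997% of all genes. Reads set aside as ambiguous between genes, 6.46% to 7.73% per library, are not in these counts. The effect of the shared bases on the Nr1d1 values was not tested. Nr1d2 (ENSMUSG00000021775, chromosome 14, 18204054 to 18239127, minus strand) averaged 91.3 ± 10.9 CPM with myriocin and 80.2 ± 10.7 CPM with DMSO, a log2 fold change of 0.19 (SE 0.10).

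**Figure D2:**
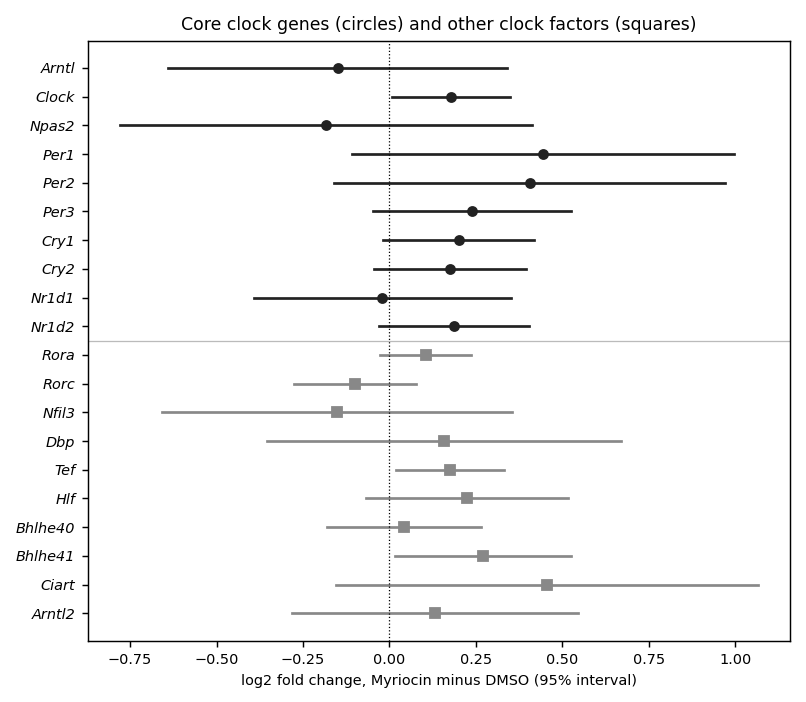
Log2 fold change, myriocin minus DMSO (x axis), with its 95% interval from edgeR, for the 10 core clock genes (black circles) and the 10 tested other clock factors (grey squares). Per1 at 0.44 and Per2 at 0.41 lie farthest right among the core genes with wide intervals, while Clock at 0.18 has a narrow one.

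Single libraries moved several of these differences by over 1.5 times. Arntl gave -0.33 without DMSO replicate 2 and -0.052 without DMSO replicate 4. Per2 gave 0.62 without DMSO replicate 2 and 0.24 without DMSO replicate 5, and Per1 0.29 without Myriocin replicate 1. Cry1 gave 0.12 without DMSO replicate 2, and without DMSO replicate 5 Cry2 gave 0.097 and Nr1d2 0.12. The sign turned in Npas2 and Nr1d1 alone among the 10 genes when single libraries were left out. Without DMSO replicate 4, the log2 fold change of Npas2 was 0.0013 and that of Nr1d1 0.098. An alternative chosen after seeing the data left out the 3 libraries with liver transcripts. There Arntl stood at 0.16, Npas2 at 0.25 and Nr1d1 at 0.12, so that 10 of 10 members were positive. Per2 (0.038) and Cry2 (0.047) lay near 0, and the smallest edgeR adjusted p of the 10 was 0.66, for Clock. The share of all genes positive in this setting was not computed.

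The clock genes differed in how widely they varied between libraries of a group. The within-group SD of log2 CPM was 0.53 for Npas2, 0.49 for Per2, 0.45 for Per1 and 0.44 for Arntl, more than in 93.2%, 91.2%, 88.7% and 87.4% of all genes tested. Clock had 0.13, with 23.6% of genes below it. Cry1, Cry2 and Nr1d2 lay near the middle, at 0.18, 0.19 and 0.19, Per3 at 0.25 and Nr1d1 at 0.34. Npas2 also had the fewest reads of the 10. From the lowest to the highest library, Per2 spanned 3.42-fold, Per1 3.32-fold, Npas2 3.13-fold and Arntl 2.59-fold, against 1.39-fold for Clock. For Arntl and Npas2 both ends of the span lay in the DMSO group, while Per1 and Per2 were highest in Myriocin replicates 1 and 2 and lowest in DMSO replicate 5.

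Several of the genes varied together. Libraries high in Arntl were high in Npas2 (Pearson r = 0.92, permutation p = 7.00e-05, adjusted over 45 pairs 0.00315; Spearman rho = 0.84, permutation p = 0.00213, adjusted 0.0479; n = 11). Arntl and Nr1d1 also went together (r = 0.83, permutation p = 0.00290, adjusted 0.0435; rho = 0.56, permutation p = 0.0766), as did Npas2 and Nr1d1 (r = 0.76, permutation p = 0.00234, adjusted 0.0435; rho = 0.75, permutation p = 0.0109; 0.83 without the 2 libraries farthest from the Npas2 median). These 3 pairs were the ones that passed of the 45 among the 10 genes, with 100000 resamples and 2-sided tests. Of the 45, 13 pairs had an unadjusted p under 0.05. In the loop described above the Nr1d1 protein represses Arntl and Npas2, and repression alone would give a negative sign. Both transcripts had a positive r with Nr1d1, and the reason for this sign was not tested. With Spearman's rho 2 pairs passed, Arntl with Npas2 and Npas2 with Per2 (rho = -0.85, permutation p = 0.00154, adjusted 0.0479; Pearson r = -0.72, permutation p = 0.01175, adjusted 0.0755, and -0.72 without the 2 libraries farthest from the Npas2 median).

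Per2 and Per3 had negative correlations with Arntl that did not pass the adjusted threshold. Per3 had r = -0.73 with Arntl (permutation p = 0.0104, adjusted 0.0755; rho = -0.72, permutation p = 0.0167) and Per2 r = -0.71 (permutation p = 0.0174, adjusted 0.0978; rho = -0.75, permutation p = 0.0112). Per1 with Arntl had r = -0.34 (permutation p = 0.302; rho = -0.41, permutation p = 0.214; -0.43 without the 2 libraries farthest from the Arntl median), and within the repressors Per1 had r = 0.77 with Per2 (permutation p = 0.00658, adjusted 0.0654; rho = 0.79, permutation p = 0.00515) and 0.75 with Cry2 (permutation p = 0.00727, adjusted 0.0654; rho = 0.65, permutation p = 0.0341). Without the 2 libraries farthest from the Per1 median those values were 0.60 (exact permutation p = 0.0878) and 0.64 (exact permutation p = 0.0631), so both rest in part on these libraries. Clock had r = 0.38 with Arntl (permutation p = 0.247; rho = 0.13, permutation p = 0.712), and -0.082 without the 2 libraries farthest from the Arntl median. The promoters printed above hold a RORE core in Arntl, none of the 5 motifs in Npas2, an E-box variant in Nr1d1 and D-boxes in Per3, as letters only. The map of pairwise correlations shows both blocks.

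**Figure D3:**
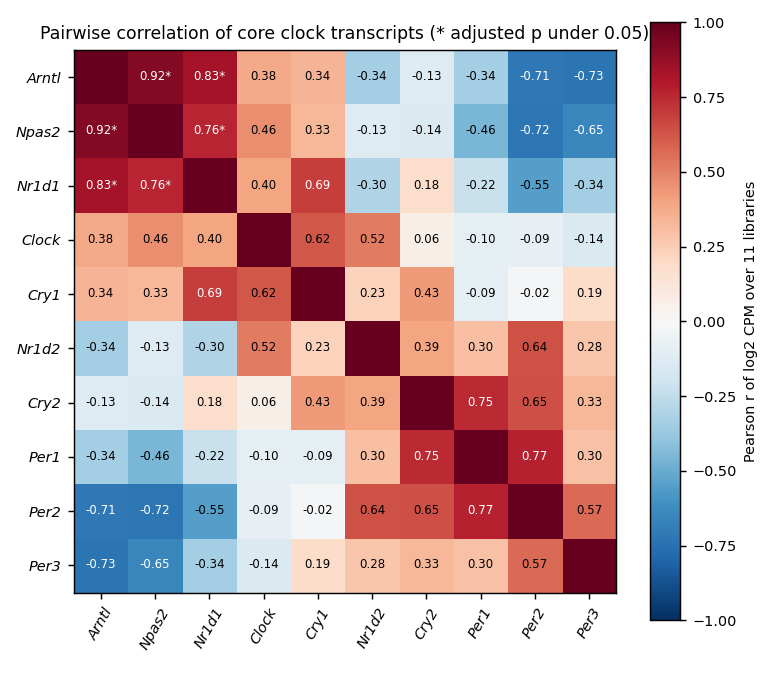
Pearson r of log2 CPM over 11 libraries for each pair of the 10 clock genes (both axes), from blue at -1 to red at 1; an asterisk marks an adjusted p under 0.05. Arntl, Npas2 and Nr1d1 are red against each other at 0.76 to 0.92, and Per2 and Per3 are blue against Arntl at -0.71 and -0.73.

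Ends of the order make it concrete. On the log2 CPM scale, Arntl exceeded Per2 by 0.51 (replicate 2) to 1.91 (replicate 6) in myriocin libraries. In DMSO libraries the difference was 3.12 in replicate 5 and 2.93 in replicate 4, but 0.26 in replicate 2. The difference between Arntl and Npas2 stayed within 3.18 to 3.98 over all 11 libraries, and that between Arntl and Nr1d1 within -3.32 to -2.47. All 6 myriocin libraries thus lay between the extremes of the Arntl to Per2 difference, which were DMSO libraries.

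**Figure D4:**
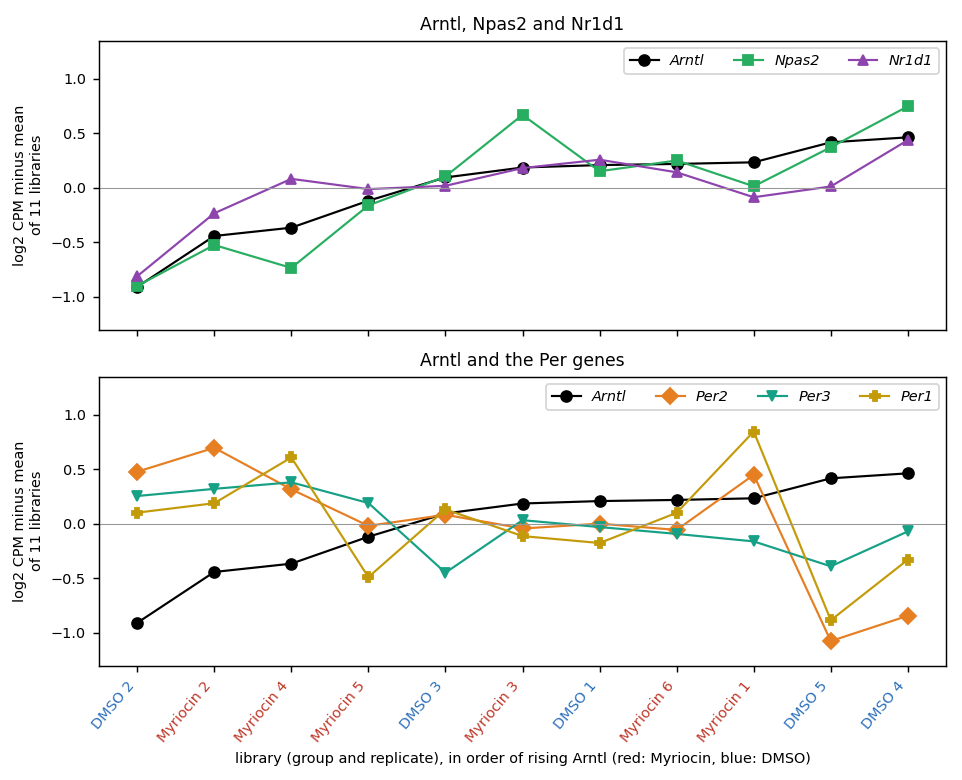
Log2 CPM of each gene minus its mean over 11 libraries (y axis), with libraries in order of rising Arntl (x axis, names in red for myriocin and blue for DMSO). Npas2 and Nr1d1 tend upward with Arntl in the top panel. Both drop back in Myriocin replicate 1, and Nr1d1 is near its mean in DMSO replicate 5. Per2 and Per3 run downward in the lower panel, with Per1 and Per2 high again in Myriocin replicate 1.

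The relation of Arntl to Npas2 was the steadiest. Leaving out each library in turn gave r from 0.90 to 0.95, all past the adjusted threshold. Without the 2 libraries farthest from the Arntl median, Myriocin replicate 2 and DMSO replicate 2, r was 0.88 (exact permutation p = 0.00215, adjusted 0.0967). With values centred on the group means, r was 0.91 (exact permutation within groups, p = 4.40e-04, adjusted 0.0198), and in the 6 myriocin libraries alone 0.87 (exact permutation p = 0.0292, adjusted 0.328). The relation of Arntl to Nr1d1 rested on few libraries: r was 0.60 without DMSO replicate 2 (permutation, adjusted p = 0.224) and 0.38 without the 2 farthest libraries (exact permutation p = 0.310). Npas2 with Nr1d1 had r = 0.66 without DMSO replicate 2 (adjusted p = 0.170) and 0.70 without DMSO replicate 4 (adjusted p = 0.107). Without the 2 farthest libraries, Arntl had r = -0.70 with Per3 (exact permutation p = 0.0378, adjusted 0.243) and -0.66 with Per2 (exact permutation p = 0.0483, adjusted 0.272). Within myriocin libraries the values were -0.96 for Per3 (exact permutation p = 0.00972, adjusted 0.328, n = 6) and -0.57 for Per2 (exact permutation p = 0.217, adjusted 0.638, n = 6). Correlations were computed over at least 6 libraries, so none is given for the 5 DMSO libraries alone.

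These values can be set against all other genes. Over 14116 genes the middle 95% of r with Arntl ran from -0.67 to 0.64. Npas2 was 1 of the 3 highest genes (0.0213%), and Nr1d1 was among the top 0.234%. Per3 and Per2 were among the lowest 1.37% and 1.70%. Clock, Cry1, Cry2, Per1 and Nr1d2 lay inside the middle range. Among named genes with a mean of at least 1 CPM, those most like Arntl besides the members were Tecpr1 (r = 0.92), Rbm22 (0.90), Slc16a9 (0.88), Tfcp2 (0.88) and Alpk2 (0.87), and the least like were Rpe (-0.90), Smoc1 (-0.87), Slc1a5 (-0.87), Klhdc7a (-0.87) and Tmem45b (-0.87), all over 11 libraries. Nr1d1 was most like Rgp1 (0.94), Foxj2 (0.92), Mia3 (0.92), Dhx35 (0.92) and Vps18 (0.92), and least like Ywhab (-0.93), Ifnar2 (-0.89), Gpx8 (-0.88), Rnaseh2b (-0.88) and Gdi2 (-0.86). The neutrophil gene S100a8 had r = -0.69 with Arntl, at 150.4 CPM in DMSO replicate 2 and 0.0432 to 20.01 CPM in the other 10 libraries. The adipocyte markers summed to 839.7 CPM in DMSO replicate 2 and to 148.9 to 330.4 CPM in the other 10. Among them, Ucp1 had 48.6 CPM in DMSO replicate 2 and at most 0.793 CPM elsewhere. The part of neutrophils or fat cells in the clock values was not tested beyond leaving that library out.

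**Figure D5:**
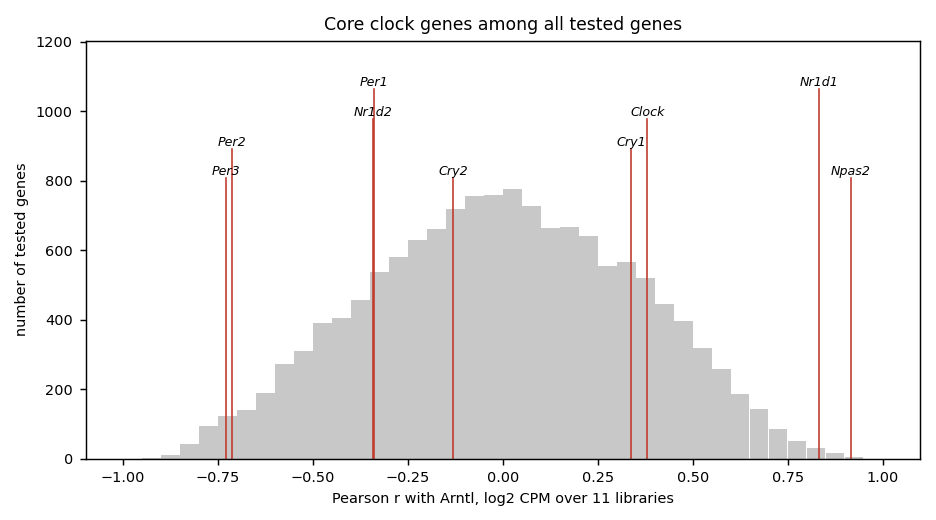
Number of tested genes (y axis, bars) by their Pearson r with Arntl over 11 libraries (x axis), with red lines at the other 9 clock genes. Npas2 at 0.92 and Nr1d1 at 0.83 stand at the right edge, Per3 at -0.73 and Per2 at -0.71 at the left, and the other members within the bulk.

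Other transcription factors of the clock were compared next. Of 11 such genes 10 were tested; 8 lay above 0 and 2 below (median log2 fold change 0.14), and edgeR called 0 in either direction. Tef (317.4 ± 22.0 CPM with myriocin, 281.1 ± 22.7 CPM with DMSO; log2 fold change 0.18, SE 0.073), an output factor that binds D-boxes, Bhlhe41 (0.27, SE 0.12), a repressor at E-boxes, and Rora (0.10, SE 0.061), which activates at ROREs, had the smallest p. Rorb did not pass the filter on low counts. Relations to Arntl were computed for these 10 factors, and 0 passed adjusted over the 10. Hlf had r = -0.72 (permutation p = 0.0108, adjusted 0.108; rho = -0.75, permutation p = 0.00982; -0.88 without the 2 farthest libraries, exact permutation p = 0.00225, adjusted 0.0225), and Dbp r = -0.63 (permutation p = 0.0368, adjusted 0.184; rho = -0.73, permutation p = 0.0150; -0.70 without them). Hlf also passed centred on group means (-0.74, adjusted permutation p = 0.0238), without TMM scaling (-0.81, adjusted permutation p = 0.0154) and without DMSO replicate 2 (-0.86, adjusted permutation p = 0.0106). These relations and the genes named for them were chosen after values had been seen.

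Genes that act on clock proteins had no member past the threshold, where 0% of all genes passed and 46.3% were positive. Among 10 tested kinases and degradation factors, 6 were positive and 4 negative (median 0.027, 0 called), led by the ubiquitin ligase subunits Fbxw11 (0.12, SE 0.079) and Btrc (0.070, SE 0.065) and the deubiquitinase Usp2 (0.22, SE 0.16). Of 10 cofactors, 5 were positive and 5 negative (median 0.014, 0 called). Timeless had 3.68 ± 0.795 CPM with myriocin and 4.69 ± 1.10 CPM with DMSO (-0.35, SE 0.18), the corepressor Ncor1 gave 0.13 (SE 0.073) and the acetyltransferase Ep300 0.12 (SE 0.11). Of 9 muscle genes known to be under clock control in mouse, 5 were positive and 4 negative (median 0.043, 0 called), among them the phosphatase Pdp1, which activates pyruvate dehydrogenase (0.21, SE 0.093), the cell cycle kinase Wee1 (0.24, SE 0.20) and the sarcomere protein Tcap (-0.13, SE 0.12).

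Genes that respond to signals from outside the cell, of kinds that also reach the Per genes, made up 3 further lists. Each had 0 members called, where 0% of all genes were called and 46.3% were positive. The signals themselves were not measured, and relations of these genes to the Per genes were not tested. Per1 is induced by glucocorticoids, and of 10 glucocorticoid-induced genes 8 were positive and 2 negative (median 0.17). Klf9, counted as positive, stood at 2.52e-05. Mt2 (1.18, SE 0.57) and Mt1 (0.65, SE 0.34), the metal-binding metallothioneins, and Ddit4 (0.59, SE 0.47) had the smallest p. Ddit4 had 47.0 CPM in Myriocin replicate 1. It had 8.94 to 24.5 CPM in the other myriocin libraries and 9.33 to 22.5 CPM with DMSO. Fkbp5 (0.21, SE 0.36) had 107.6 CPM in Myriocin replicate 1. Its other myriocin libraries had 27.1 to 53.9 CPM, against 35.7 to 42.8 CPM with DMSO. Mt2 was low, at 1.07 ± 0.896 CPM with myriocin and 0.466 ± 0.231 CPM with DMSO, and near the floor in DMSO replicate 4 (0.130 CPM). Myriocin replicates 1, 3 and 4 lay above every DMSO library in Mt2, and replicates 2, 5 and 6 within the DMSO range. Immediate early genes had 2 of 9 positive and 7 negative (median -0.12), among them Nr4a1 (0.27, SE 0.12), Ier2 (-0.39, SE 0.18) and Fos (-1.05, SE 0.60). The RNA-binding genes Rbm3 (0.19, SE 0.089) and Cirbp (-0.070, SE 0.093), both induced by cooling, had opposite signs.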

How the data were processed

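Total RNA of quadriceps was sequenced by DNBseq, per the labels' protocols. The authors deposited raw read counts per Ensembl gene for 11 libraries. The submitters' processing notes name GRCm38, the aligner STAR (2.5.2b) and the counter HTSeq (0.6.0); annotation release, strand setting and read filters are unstated. Of 53470 lines, 5 were HTSeq summary lines (24.8% to 28.2% of reads), kept out of library sizes and tests. Symbols, coordinates and exon lengths came from GENCODE M21, which matched 53360 of 53465 genes. No other per-sample columns were present.

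Counts went into edgeR's quasi-likelihood test (version 4.0.16; R 4.3.3): filterByExpr (minimum count 10, minimum total 15), TMM scaling, robust fit, treatment as the only factor, Benjamini-Hochberg adjustment over 14117 genes, threshold 0.05. SE is the absolute log2 fold change over the square root of F. CPM are TMM-scaled, and RPKM values are these CPM per kilobase of exon. Correlations used log2 CPM (prior count 2), 2-sided permutation of libraries, adjusted over 45 pairs, exact where fewer than 10 libraries were left. Marker sums, and the per-library levels of S100a8 and Ucp1, are CPM on library totals without TMM. A floor of 3 counts is 0.130 to 0.135 CPM; precision is limited by counting error and by the number of libraries. Scripts were tested on simulated data. No 2 libraries of a group were copies (chi-square per degree of freedom at least 8.18).

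Alternatives were DESeq2 1.42.0, limma-voom (limma 3.58.1), other scalings, filters and prior counts, leaving out libraries, and a replicate block. All 10 members were named, with the 3 members of smallest p in each clock-related list and the 5 genes most and least like Arntl and Nr1d1 (mean of at least 1 CPM, no predicted gene). The members and lists were chosen with earlier results of these data known.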

Additional observations from a re-analysis of the deposited data

Results flagged for a closer look

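Among 37 clock and related genes checked in both groups (74 groups), 6 had 1 library set apart from the rest of its group by more than Dixon's 95% limit; chance flags about 1 in 20 groups. Of the core genes, within the myriocin group Cry1 was lowest in replicate 1, at 12.2 CPM, and Cry2 in replicate 5, at 47.4 CPM. DMSO libraries held lower values of both. Arntl2, a paralog of Arntl, was lowest within the DMSO group in replicate 2, at 1.27 CPM, and lower still in Myriocin replicate 4. DMSO replicate 2 was the lowest of all 11 libraries in Arntl, Clock, Npas2, Cry1 and Nr1d1. Fbxw11 was highest in Myriocin replicate 3, at 84.9 CPM. In Myriocin replicate 4, a library with liver transcripts, Ncor1 was lowest at 123.1 CPM and Rbm3 highest at 59.1 CPM.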

How the results depend on the processing

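The number of genes past the threshold was 0 with edgeR (660 at an unadjusted p under 0.05; the sets of 3 liver-transcript and 3 farthest libraries were chosen after seeing the data) under each scaling, filter and left-out library, 0 with limma-voom and 3 with DESeq2, none of them a clock gene here; 0 of the 10 clock genes and 0 members of the 7 clock-related lists passed in any setting. No pairing by replicate number was seen over all genes (correlations of deviations from -0.13 to 0.087, none of 5 matching its own number best). Such correlations cannot exclude that animals were paired. With the replicate block over 10 libraries the count of genes past the threshold was also 0. The unadjusted count was 1449 without Myriocin replicate 4, 1167 with no filter, 1022 without the liver-transcript libraries and 1140 without the 3 farthest out. The log2 fold change of Nr1d1 turned positive with the block (0.0016), with limma-voom (0.029) and without the liver-transcript libraries (0.12), and ran from -0.17 to 0.098 with single libraries left out. Without the liver-transcript libraries Arntl gave 0.16 and Npas2 0.25; with single libraries left out Npas2 ran from -0.37 to 0.0013. For Clock, Per1, Per2, Per3, Cry1, Cry2 and Nr1d2 the sign held in every setting run.

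Of the correlations, Arntl with Npas2 lost its call without the 2 libraries farthest from the median (r = 0.88), without the 3 farthest out (0.86) and in myriocin libraries alone (0.87), where fewer libraries remain. Arntl with Nr1d1 lost it by Spearman (0.56), centred on groups (0.85), without the 2 (0.38), without the 3 farthest out (0.82), without the liver-transcript libraries (0.93) and in myriocin libraries alone (0.52), and in 6 of 11 single omissions (0.60 to 0.83; 0.60 to 0.90 over all 11). Npas2 with Nr1d1 lost it by Spearman (0.75), centred (0.78), without the 2 (0.83), without the 3 farthest out (0.88) and in myriocin libraries alone (0.57), and in 6 of 11 single omissions (0.66 to 0.77; 0.66 to 0.90 over all 11). Arntl with Per3 passed without TMM scaling (-0.79) and without DMSO replicate 3 (range -0.82 to -0.69), and Arntl with Per2 without Myriocin replicate 1 (range -0.81 to -0.66). Values that turned sign were Arntl with Clock without the 2 (-0.082) and the 3 farthest out (-0.16; single omissions -0.035 to 0.51). Arntl with Cry1 turned by Spearman (-0.091), without the 2 (-0.46), without the 3 farthest out (-0.33) and in myriocin libraries alone (-0.25; single omissions -0.45 to 0.48). So did Arntl with Cry2 (0.50 without the liver-transcript libraries; single omissions -0.44 to 0.16), with Per1 (0.086 without those libraries, 0.0077 in myriocin libraries alone) and with Nr1d2 (0.18 in myriocin libraries alone). Causes were not tested. With 5 and 6 libraries the median half-width of a 95% interval over all genes was 0.25 in log2 units, and the wider intervals of Per1, Per2 and Npas2 limit what their comparisons can show.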
